A study of Mus musculus with 4 samples.

Results

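The BCL2 family sets the threshold at which a cell releases cytochrome c from its mitochondria and dies. Its transcripts were followed here through 10 genes chosen by name, of 37583 features in each deposited table: the anti-apoptotic Bcl2, Bcl2l1 (which encodes BCL-XL) and Mcl1, the effectors Bax and Bak1, and the BH3-only genes Bcl2l11 (BIM), Bad, Bid, Bbc3 (PUMA) and Pmaip1 (NOXA). All 10 were found in all 4 libraries. The cells were naive CD4+ T cells sorted from C57BL/6 mouse spleen. For 24 h they were activated on plates coated with anti-CD3 and anti-CD28, under the conditions the labels call aTh17. IL-6, IL-23 and IL-1β were present, and IFN-γ and IL-4 were neutralized with antibodies. One culture received 1.5 µM DMAT and another 1 µM CX4945, both inhibitors of the protein kinase CK2, and each inhibitor library has a control library of its own that the titles name. Age and sex of the mice, the number of animals behind a library, and what the controls received in place of an inhibitor are not given in the sources used here. Each of the 4 groups is 1 library, so no ratio between a pair has a replicate check.

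Anti-apoptotic proteins hold BAX and BAK in check on the outer mitochondrial membrane. BH3-only proteins, raised or activated by stress or by lost growth signals, bind the anti-apoptotic members and release or activate BAX and BAK, which then form pores. In T cells BCL2 carries the survival signal of IL-7, BCL-XL is induced by CD28, MCL1 is needed throughout T cell life, and BIM drives the death of activated cells as a response ends. CK2 is known to phosphorylate BID and so to slow its cleavage by caspase-8. Much of this control acts on proteins, which these data do not measure.

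Values for the 4 libraries are given throughout in the order control for DMAT, DMAT, control for CX4945, CX4945. They held 2772525, 2523446, 2285545 and 2056635 exon reads, and 9331 to 9661 genes had at least 10 reads. A count of 3 reads corresponded to 1.09 to 1.46 counts-per-million (CPM), and all 10 genes lay above that level in every library. Levels between genes were compared as RPKM, the CPM divided by exon length in kilobases, and levels between libraries as CPM. The defining CD4 T cell markers were all present, with a summed level of 1497 to 1702 CPM over 7 genes. B cell markers summed to 0.437 to 1.45 CPM (2 of 5 at 0 in all libraries), myeloid markers to 0 to 0.787 CPM (2 of 5 at 0), CD8 T cell markers to 2.36 to 4.88 CPM, and all 3 NK cell markers were at 0. The 7 Th17 genes summed to 688, 210, 525 and 214 CPM, so they were lower in both inhibitor libraries. What part those shifts have in the results was not tested.

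The same 3 genes led the family in all 4 libraries. Bax was first with 153.5 to 185.7 RPKM, then Mcl1 with 85.5 to 90.6 RPKM, and then Bcl2l1 with 55.7 to 61.0 RPKM. Each step in that order, and the step from Bcl2l1 to the next gene, had a 95% counting interval above 1 in every library. In the control for DMAT, for example, Bax exceeded Mcl1 1.95-fold (1.75 to 2.16) and Mcl1 exceeded Bcl2l1 1.56-fold (1.41 to 1.73). Bak1 at 13.2 to 20.5 RPKM and Bcl2 at 10.5 to 15.6 RPKM followed. Their order was separated only in the control for DMAT, where Bak1 exceeded Bcl2 1.94-fold (1.55 to 2.42). The BH3-only genes were the low end of the family, with Bid at 6.74 to 11.9, Bad at 5.35 to 6.86, Bbc3 at 4.13 to 7.25, Bcl2l11 at 2.26 to 4.26 and Pmaip1 at 1.49 to 2.97 RPKM. Most neighbours in that order were not separated by counting error. The exceptions were Bbc3 over Pmaip1 in the control for DMAT, Bid over Bbc3 and Bad over Bcl2l11 in the DMAT library, and Bbc3 over Bcl2l11 in the control for CX4945. The step down to Bid was not separated in the DMAT pair. Bcl2 exceeded Bid 1.17-fold (0.910 to 1.52) in its control, and Bak1 exceeded Bid 1.12-fold (0.826 to 1.50) in the DMAT library. In the CX4945 pair Bcl2 over Bid was separated, at 1.61 (1.21 to 2.17) in the control and 2.28 (1.67 to 3.17) with the inhibitor. Among genes with at least 10 reads in a library, Bax stood at the 96.2nd to 97.1st percentile of RPKM, Bcl2l11 at the 9.75th to 21.0th and Pmaip1 at the 4.11th to 14.0th.

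**Figure D1:**
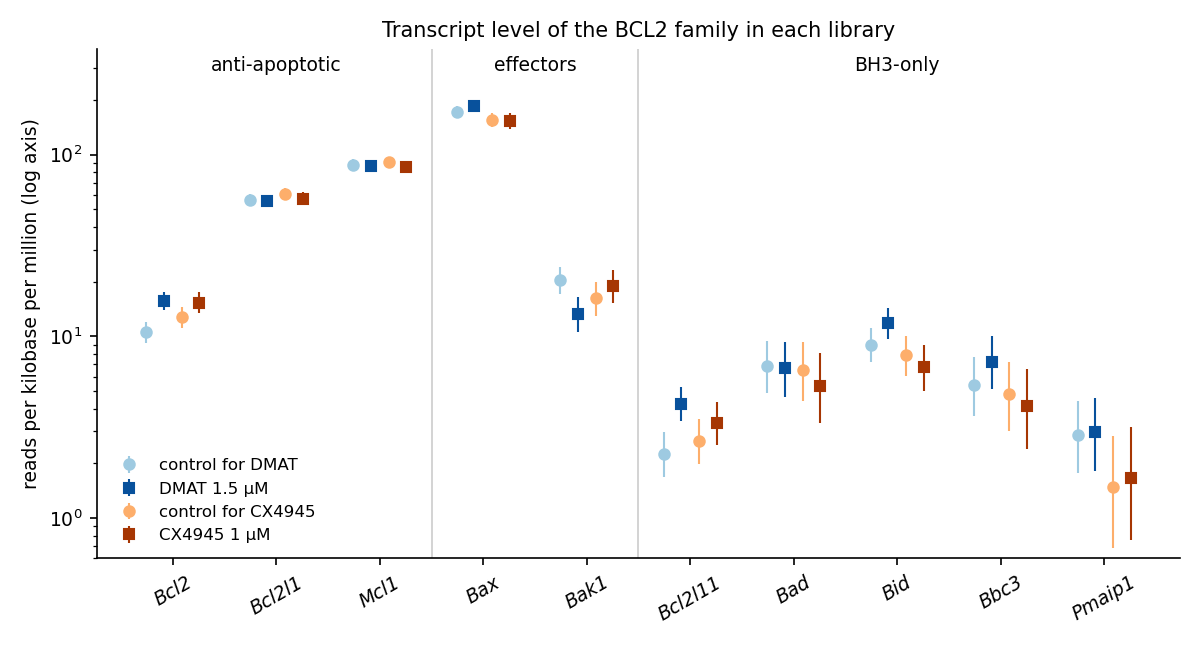
Level of each gene in each library, in RPKM on a log axis, with 95% counting intervals as bars and 1 point a library. Bax (153.5 to 185.7), Mcl1 (85.5 to 90.6) and Bcl2l1 (55.7 to 61.0) lie above all other members. The points of the BH3-only genes lie lowest in each library, though the step down to Bid is not separated in the DMAT pair.

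By role, the 2 effectors held the largest share of the summed family RPKM, at 51.4%, 51.0%, 47.7% and 49.0%. The 3 anti-apoptotic genes held 41.5%, 40.6%, 45.8% and 44.9%. The 5 BH3-only genes held 7.06%, 8.46%, 6.51% and 6.04%, with counting standard errors of 0.50 to 0.54 percentage points. The BH3-only share was highest in the DMAT library, at 1.39 percentage points above its control, which is 1.90 times the combined counting standard error, and in the CX4945 pair the difference was 0.622 times that error. The anti-apoptotic share differed most between the controls, 4.26 percentage points higher in the control for CX4945 (2.78 times the error). The family's summed level was nearly constant, at 1011, 1072, 1019 and 1004 CPM. In a bulk library, fewer cells of a type and less RNA per cell cannot be told apart.

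**Figure D2:**
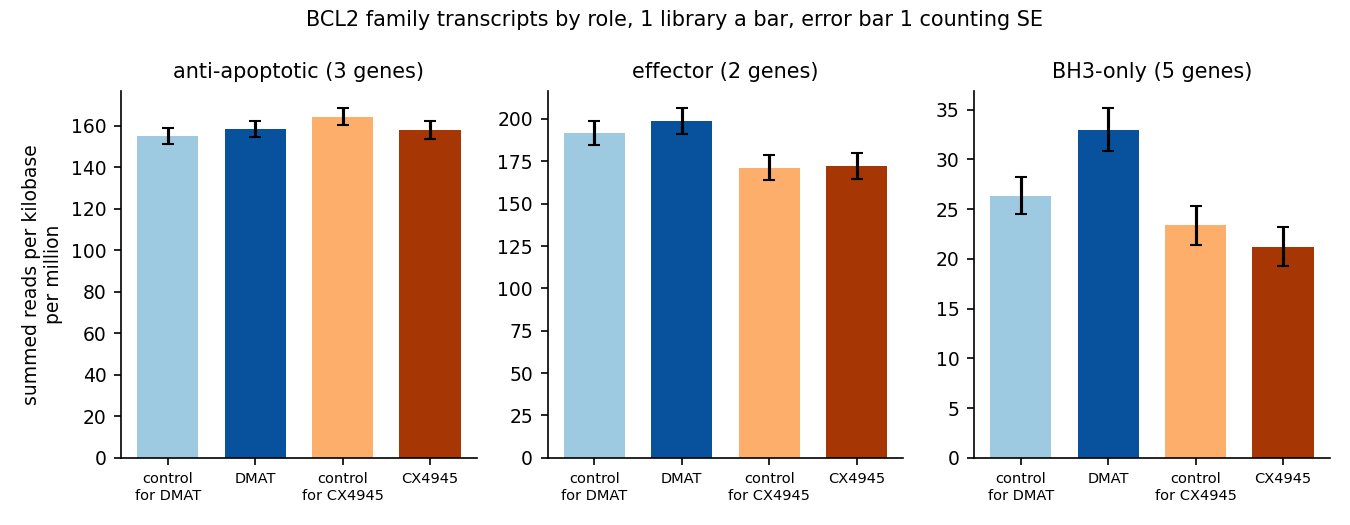
Summed level of the anti-apoptotic, effector and BH3-only genes, in RPKM, 1 bar a library, with the counting standard error. The BH3-only sum is highest in the DMAT library; the axes differ between panels.

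No member differed 2-fold from its control with either inhibitor. With DMAT, Bcl2l11 and Bcl2 were higher and Bak1 was lower by more than counting error, while with CX4945 no member was. Among genes with at least 20 reads in the pair, a 2-fold difference was counted on the log2 ratio of TMM-scaled CPM with a prior count of 2. That rule called 0 of 10 members with DMAT, where it called 2.43% of 9649 genes. It called 0 of the 9 members that entered with CX4945, where it called 1.74% of 9358 genes. Between the 2 control libraries it called 0 of 10 members and 2.32% of 9564 genes. The second rule asks whether the exact conditional 95% interval of the ratio leaves out 1. It called 2 members higher with DMAT, against 9% of genes, and 1 lower, against 9.89%, together 3 of 10 against 18.9% of genes. With CX4945 it called 0 of 9 members against 14.8% of genes, and between the controls 0 of 10 against 18.6%. This rule called a larger share of genes as reads rose. With DMAT the share was 12.1% from 20 reads in the pair, 16.4% from 100 and 25.1% from 400 to under 3000. Of the members in those ranges it called 0 of 3, 2 of 3 and 1 of 4. The interval covers counting error only, and the share of genes it called between the controls shows how often libraries that received no inhibitor differed by more than that.

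The median log2 ratio of the members was 0.08 with DMAT, −0.08 with CX4945 and −0.10 between the controls, and that of all genes lay between −0.01 and 0.00. As doses differed (1.5 and 1 µM), the inhibitors are set side by side and not compared with each other.

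**Figure D3:**
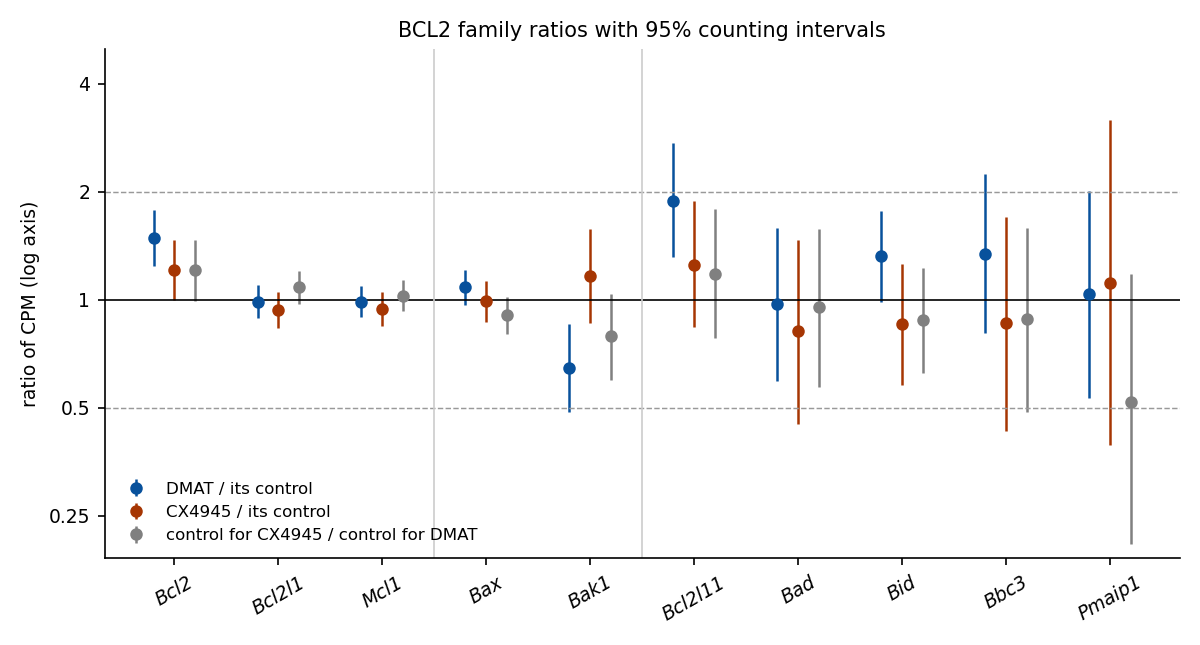
Ratio of CPM for each member on a log axis, DMAT over its control (blue), CX4945 over its control (brown) and control for CX4945 over control for DMAT (grey), with 95% counting intervals; dashed lines mark 2-fold. With DMAT the intervals of Bcl2 (1.24 to 1.79), Bcl2l11 (1.32 to 2.73) and Bak1 (0.485 to 0.858) leave out 1.

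Bcl2 (mm9, chromosome 1, 108434755 to 108610851) was the anti-apoptotic member whose interval left out 1 with DMAT. It had 209, 286, 209 and 226 exon reads, or 75.7, 113, 91.4 and 110 CPM. Both inhibitor libraries lay above both controls, but the controls themselves were apart. With DMAT the ratio was 1.49 (1.24 to 1.79), with CX4945 it was 1.21 (0.996 to 1.46), and between the controls it was also 1.21 (0.992 to 1.47). Against the control for CX4945 the log2 ratio of the DMAT library was 0.30 in place of 0.57, and its interval still left out 1. The interval with CX4945 left out 1 under RLE size factors (log2 0.28) and against the control for DMAT (log2 0.54). On uniquely mapped reads, 76.5% to 85.2% of the Bcl2 reads, the ratio was 1.53 (1.24 to 1.88) with DMAT and 1.09 (0.882 to 1.36) with CX4945, and between the controls it was 1.33 (1.07 to 1.65), an interval that leaves out 1.

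Bcl2l1 (chromosome 2, 152593052 to 152657464) and Mcl1 (chromosome 3, 95462643 to 95467099), with the tightest intervals of the family, stayed close to their controls. Bcl2l1 had 737, 670, 661 and 555 reads, or 267, 264, 289 and 271 CPM. Its ratio was 0.988 (0.888 to 1.10) with DMAT and 0.938 (0.836 to 1.05) with CX4945. Mcl1 had 848, 771, 722 and 610 reads, or 307, 303, 316 and 298 CPM. The Mcl1 ratio was 0.988 (0.895 to 1.09) with DMAT and 0.944 (0.846 to 1.05) with CX4945. Both inhibitor libraries lay below both controls for Mcl1, by a margin smaller than its counting error, and the highest Mcl1 level was 1.06 times the lowest.

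Of the effectors, Bax (chromosome 7, 52717065 to 52722268) had 634, 632, 475 and 421 reads, or 230, 249, 208 and 206 CPM. Its ratio was 1.08 (0.969 to 1.21) with DMAT and 0.990 (0.866 to 1.13) with CX4945. Reads across its exon junctions, 207, 204, 140 and 142, gave 1.07 (0.878 to 1.31) and 1.13 (0.891 to 1.44). On both readouts every Bax interval held 1, but against the control for CX4945 the DMAT library was higher (log2 0.26) with an interval that left out 1.

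Bak1 (chromosome 17, 27156755 to 27165954) had 136, 81, 89 and 93 reads, or 49.2, 31.9, 38.9 and 45.4 CPM, lowest in the DMAT library. The level was 1.55-fold lower with DMAT (ratio 0.647, 0.485 to 0.858), and the ratio with CX4945 was 1.17 (0.863 to 1.58). The control for CX4945 lay at 0.790 (0.598 to 1.04) of the control for DMAT. Only 18.0% to 25.8% of Bak1 reads were uniquely mapped, so its counts can hold reads of a near-identical copy. On the 28 and 19 unique reads of the DMAT pair the ratio was 0.737 (0.389 to 1.37), and against the control for CX4945 the log2 ratio was −0.28, and neither interval left out 1. The gene also lies within the annotated bounds of Ggnbp1 (113, 97, 94 and 64 reads), and whether counting used strand is not given in the sources used here.

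Bcl2l11 (chromosome 2, 127951774 to 127988283) showed the largest ratio of the BH3-only genes. It had 50, 87, 49 and 55 reads, all uniquely mapped, or 18.1, 34.2, 21.4 and 26.9 CPM, and both inhibitor libraries lay above both controls. The ratio was 1.89 (1.32 to 2.73) with DMAT and 1.25 (0.837 to 1.88) with CX4945, and 1.18 between the controls. Against the control for CX4945 the DMAT library kept a log2 ratio of 0.66 with an interval that left out 1. Reads across its exon junctions, 3, 3, 2 and 2, and reads outside exons, 8, 14, 4 and 4, were too few to separate the libraries. With DMAT the junction ratio was 1.09 (0.146 to 8.11) and the ratio outside exons was 1.90 (0.744 to 5.23).

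Bid, the substrate of caspase-8 (chromosome 6, 120841948 to 120866871), had 88, 107, 64 and 49 reads, or 31.9, 42.1, 28.0 and 23.9 CPM. The ratio was 1.32 (0.987 to 1.77) with DMAT and 0.855 (0.577 to 1.26) with CX4945. Against the control for CX4945 the DMAT library had a Bid log2 ratio of 0.58, and that interval left out 1. Bbc3, a p53 target (chromosome 7, 16894965 to 16903554), had 30, 37, 22 and 17 reads, with ratios of 1.34 (0.806 to 2.25) and 0.863 (0.430 to 1.70). Against their own controls, both genes had intervals that held 1. Bad, which links growth factor kinases to the family (chromosome 19, 7016351 to 7026388), had 38, 34, 30 and 22 reads, with ratios of 0.972 (0.594 to 1.59) and 0.819 (0.450 to 1.47). Bad stood apart in its junction reads, 12, 1, 9 and 5, where the DMAT ratio was 0.0905 (0.00212 to 0.612), a comparison of 1 read with 12. Among the 10 members, this was the one junction ratio with an inhibitor whose interval left out 1, and it was singled out after its value was seen. Pmaip1 had 21, 20, 9 and 9 reads, or 7.60, 7.87, 3.93 and 4.39 CPM. Its ratio was 1.03 (0.532 to 2.01) with DMAT and 0.517 (0.209 to 1.18) between the controls, and both intervals held 1. Its 18 reads in the CX4945 pair fell below the minimum of 20.

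The balance between members was also read within each library, as a ratio of RPKM that library size does not touch. Since Mcl1, Bax and Bcl2l1 differed little, their ratios to Bcl2l11, Bak1 and Bcl2 restate the values of Bcl2l11, Bak1 and Bcl2. They are no further evidence. Mcl1 over Bcl2l11 was 39.1 (29.4 to 53.1), 20.4 (16.3 to 25.8), 33.9 (25.4 to 46.3) and 25.6 (19.4 to 34.3), lowest with DMAT. Bcl2l11 over Bcl2 was 0.214, 0.272, 0.210 and 0.218, and the 4 intervals overlapped. Bcl2l1 over Bcl2 was 5.36 (4.59 to 6.28), 3.56 (3.09 to 4.10), 4.80 (4.11 to 5.64) and 3.73 (3.19 to 4.37), lower in both inhibitor libraries, with intervals that do not meet in the DMAT pair and overlap in the CX4945 pair. Bax over Bak1 was 8.38, 14.0, 9.59 and 8.14, highest with DMAT, where its interval (11.1 to 17.9) did not meet that of its own control (6.95 to 10.2) but met that of the control for CX4945 (7.64 to 12.2). The limits of the Bak1 counts hold for this ratio too.

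A joint fit over the 4 libraries asked which genes differed in the same way with both inhibitors. It took the pair as a block. The test was edgeR's quasi-likelihood F test, and p-values were adjusted over 9629 genes by Benjamini-Hochberg (BH). No member passed at an adjusted p of 0.05, where 0.561% of all genes did (17 higher and 37 lower); DESeq2 also called 0 members. At an unadjusted p under 0.05 the fit held 2 of 10 members, against 7.23% of genes. They were Bcl2, whose joint log2 value was 0.43 ± 0.13 (SE; edgeR BH adjusted p = 0.228), and Bcl2l11, with 0.65 ± 0.25 (edgeR BH adjusted p = 0.463). The other 8 lay between −0.21 (Bak1) and 0.16 (Bbc3), with edgeR adjusted p-values of 0.909 to 0.987. For Bcl2l1 (−0.05 ± 0.09) and Mcl1 (−0.04 ± 0.09) the standard errors were the smallest of the family. By level alone, 2 members (Bcl2 and Bcl2l11) were higher in both inhibitor libraries than in both controls, as were 14.2% of genes, and 1 member (Mcl1) was lower in both, as were 15.5%. The fit treats 2 different inhibitors at different doses as replicates and leaves 1 residual degree of freedom. That residual is the difference between the log ratios of the 2 inhibitors to their own controls. The fit adds 19.7 prior degrees of freedom borrowed from all genes, so its p-values rest mostly on other genes. All of this spread comes from 4 single libraries and can be technical.

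**Figure D4:**
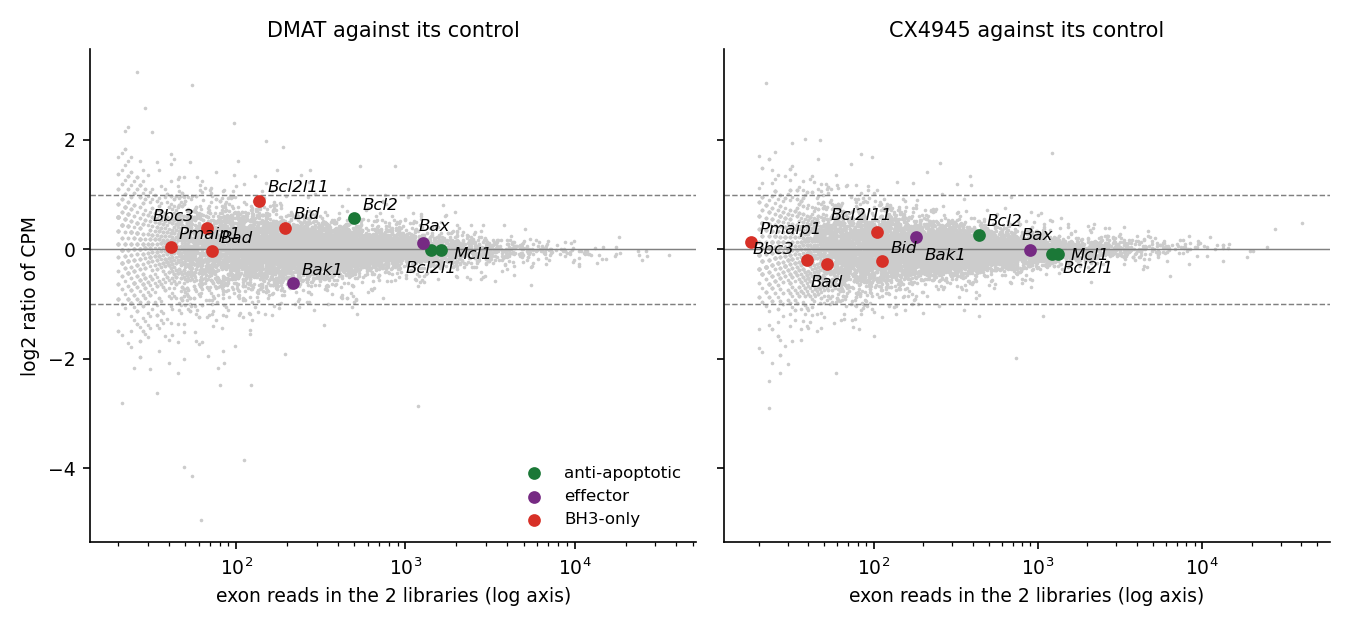
Log2 ratio of CPM against the exon reads of the pair (log axis) for all genes with at least 20 reads (grey) and for the members (green anti-apoptotic, purple effectors, red BH3-only); dashed lines mark 2-fold. With DMAT, Bcl2l11 (0.89), Bcl2 (0.57) and Bak1 (−0.62) lie farthest from 0 among the members, and with CX4945 no member lies past 0.31 in either direction.

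The promoter sequences of the 2 members with the largest joint values are shown because FOXO, STAT and SP1 factors are known to act on genes of this family. They are the 250 bases upstream of each start in RefSeq (GRCm38.p6, a later build than the mm9 of the counts), 5′ to 3′ on the gene's strand. RefSeq windows were found for 9 of the 10 members. Capitals mark the FOXO core GTAAACA and the GC box GGGCGG, on either strand; no 2 matches shared bases in these windows. Bcl2 has 1 window, chr1:106714291-106714540 (minus strand), and Bcl2l11 has 2, chr2:128125788-128126037 and chr2:128127325-128127574 (plus strand).
Bcl2: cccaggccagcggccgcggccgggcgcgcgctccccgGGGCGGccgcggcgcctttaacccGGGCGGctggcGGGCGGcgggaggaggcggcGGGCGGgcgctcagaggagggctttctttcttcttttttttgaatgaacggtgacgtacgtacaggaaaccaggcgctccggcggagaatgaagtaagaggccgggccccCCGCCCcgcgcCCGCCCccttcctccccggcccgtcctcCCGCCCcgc
Bcl2l11, window 1: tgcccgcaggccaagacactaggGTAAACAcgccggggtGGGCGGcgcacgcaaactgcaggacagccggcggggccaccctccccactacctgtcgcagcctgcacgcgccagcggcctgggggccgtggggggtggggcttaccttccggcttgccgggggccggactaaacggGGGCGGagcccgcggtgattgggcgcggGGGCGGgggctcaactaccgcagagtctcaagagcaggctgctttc
Bcl2l11, window 2: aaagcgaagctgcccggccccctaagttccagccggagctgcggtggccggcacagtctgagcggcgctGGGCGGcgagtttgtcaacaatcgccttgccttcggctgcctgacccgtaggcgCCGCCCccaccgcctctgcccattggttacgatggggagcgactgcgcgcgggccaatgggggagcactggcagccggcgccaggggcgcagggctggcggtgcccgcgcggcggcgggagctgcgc

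The Bcl2 window held 7 GC boxes and no FOXO core. Window 1 of Bcl2l11 held 1 FOXO core and 3 GC boxes, and window 2 held 2 GC boxes. Of 32841 RefSeq mouse windows of that length, 3.17% held GTAAACA and 32.7% held GGGCGG. G and C made up 74.8%, 72.0% and 73.2% of these 3 windows, against a median of 52.4% over all windows. None of the 3 held TTCNNNGAA, the STAT motif (7.02% of all windows), CACGTG, the MYC E-box (6.02%), or the p53 decamer (7.13%), each searched on both strands. Of the members' 15 windows, 1 of the 3 of Bbc3 also held GTAAACA, and the Bbc3 ratios had intervals that held 1. No window of the remaining members held it. GC boxes were also found in windows of Mcl1, Bax, Bad, Bid and Bbc3, and in none of Bcl2l1 or Bak1. A match is a description of the letters and not a measured site.

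The wider family was described through 17 more genes. Bcl2a1 is an inducible anti-apoptotic relative and has several near-identical copies in the mouse. Summed over 4 copies, Bcl2a1 had 224, 135, 206 and 226 reads, lowest in the DMAT library. The sum was 0.655 (0.525 to 0.814) of control with DMAT and 1.23 (1.01 to 1.49) with CX4945. Only 9.73% of these reads were unique, so the copies cannot be told apart. Bnip3, a hypoxia-induced mitophagy gene, had 60, 40, 26 and 4 reads, with a log2 ratio of −2.10 with CX4945 and −0.45 with DMAT. It was already lower in the control for CX4945 than in the control for DMAT (log2 −0.89), and its joint value did not pass (edgeR BH adjusted p = 0.498), though it did in the fit without the block and the DMAT library (log2 −3.06, edgeR BH adjusted p = 0.0150). Bcl2l12 had 39, 56, 32 and 41 reads, with the highest joint value of the list (0.59 ± 0.28, edgeR BH adjusted p = 0.688), and 45.2% of its reads were unique. Bcl2l2 (0, 1, 2 and 1 reads), Bcl2l10 (0 in all), Hrk (0, 1, 0 and 0), Bok (4, 2, 2 and 2), Bmf (5, 3, 7 and 1) and Bik (7, 11, 11 and 10) were at or near the floor. In the joint fit 0 of the 8 genes of the list that entered passed, against 0.561% of all genes.

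Downstream of BAX and BAK, 13 genes of mitochondrial release, the apoptosome and executioner caspases were counted, and 0 of 13 passed the joint fit, against 0.561% of all genes. Casp6, an executioner caspase, was the lowest of them. It had 96, 39, 77 and 46 reads, so both inhibitor libraries lay below both controls. Its log2 ratio was −1.14 with DMAT and −0.56 with CX4945, and its joint value was −0.87 ± 0.24 (edgeR BH adjusted p = 0.138). In the same fit on unique reads Casp6 passed (−0.88, edgeR BH adjusted p = 0.0173), and under the other settings its adjusted p lay between 0.0750 and 1. All Casp6 reads were uniquely mapped, so its own counts were the same in the fit on unique reads. Only the counts of other genes differed there. With CX4945, 6 of the 13 had intervals below 1 and 0 above it, against 7.75% and 7.06% of all genes, with a median log2 ratio of −0.23. They were Cycs, Apaf1, Casp6, Vdac1, Vdac2 and Vdac3. Only 21.0% of Cycs reads and 44.0% of Vdac3 reads were uniquely mapped, so their counts can hold reads of other loci. In this pair the share of all genes called in either direction rose with reads. It was 8.90% from 20 reads in the pair, 12.8% from 100 and 22.0% from 400 to under 3000. Cycs, Vdac1, Vdac2 and Vdac3 lay in the last range, and Apaf1 and Casp6 in the middle one. With DMAT 2 of the 13, Cycs and Casp6, had intervals below 1, against 9.89% of all genes, and the median was 0.01. Between the controls 2 of the 13 had intervals below 1 and 1 above it, against 9.77% and 8.87% of all genes. Cycs was among the lower ones (0.896, 0.814 to 0.986), and Vdac1 was the higher one (1.22, 1.09 to 1.36). Casp9, the apoptosome's initiator caspase, had 27, 25, 15 and 18 reads and the highest joint value (0.19 ± 0.39).

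For the other lists, counts of 0 in the joint fit stand against the same 0.561% of all genes, a share at which lists of this size give few calls or none. Of the caspase inhibitors, 0 of 5 that entered passed the joint fit, with Birc6 the highest (0.01) and Birc2 the lowest (−0.18). Of the death receptor arm that reaches BID, 0 of 8 passed, with the adaptor Fadd the highest (0.40 ± 0.26) and Tnfrsf10b the lowest (−0.33 ± 0.19). Only 29.1% of Fadd reads were uniquely mapped. On those its log2 ratio was −0.20 with DMAT and 0.77 with CX4945, in place of 0.26 and 0.53. Kinases, phosphatases and anchors of the family's proteins gave 0 of 16, from Ppp3ca (−0.24) to Mapk9 (0.18). Among genes for turnover of MCL1 and BIM 0 of 9 passed, from Rps6ka3 (−0.27 ± 0.11) to Rps6ka1 (0.20 ± 0.12). Of p53 and its other targets 0 of 14 passed, from Perp (−0.64 ± 0.45) to Trp53inp1 (0.18 ± 0.11). This last list differed most between the controls, with a median log2 ratio of −0.39. In the control for CX4945 against the control for DMAT, 9 of 14 genes had intervals below 1 and 0 above. Among all genes 9.77% and 8.87% did. In either direction the share was 11.7% of genes from 20 reads in the pair, 14.4% from 100 and 27.3% from 400 to under 3000. Trp53inp1 had 933, 1086, 241 and 200 reads, a log2 ratio of −1.67 between the controls, so its level followed the pair. Among the members, the p53 targets Bax (−0.14), Bbc3 (−0.16) and Pmaip1 (−0.83, from 21 and 9 reads) had log2 ratios between the controls whose intervals held 1.

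**Figure D5:**
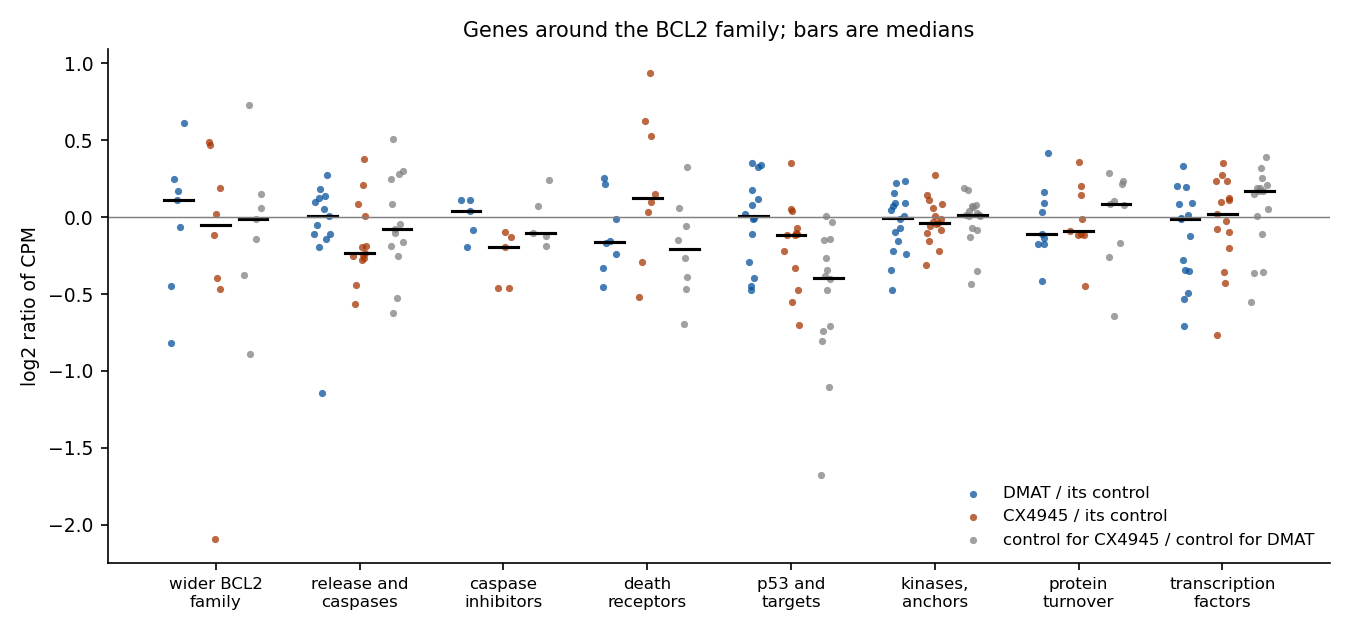
Log2 ratio of CPM of each gene with at least 20 reads in the pair, by list and comparison (blue DMAT, brown CX4945, grey control for CX4945 over control for DMAT), with the median as a bar. The p53 list has a median of −0.39 between the controls, and the release and caspase list a median of −0.23 with CX4945.

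Among 15 transcription factors known to act on BCL2 family genes, 1 passed the joint fit, lower, where 0.384% of all genes did. It was Stat5a, a mediator of IL-2 and IL-7 signals. Stat5a had 1208, 791, 1252 and 877 reads, or 437, 311, 547 and 428 CPM, and a joint value of −0.42 ± 0.09 (edgeR BH adjusted p = 0.0265). The controls themselves differed 1.25-fold (1.16 to 1.36), and against the control for DMAT the CX4945 library had a log2 ratio of −0.031 with an interval that held 1. The call was lost without the pair as a block (edgeR adjusted p = 0.999) and with DESeq2. Its close relative Stat5b had 540, 527, 504 and 422 reads (edgeR BH adjusted p = 0.998). Foxo1 had 170, 167, 168 and 163 reads and Foxo3 had 175, 203, 113 and 96, and neither passed. The Foxo3 ratio was 1.26 (1.02 to 1.55) with DMAT and 0.949 (0.715 to 1.26) with CX4945. Between the controls it was 0.780 (0.610 to 0.993). Myb was the lowest of the list (−0.43 ± 0.30) and Runx1 the highest (0.23 ± 0.17), and neither passed. By the interval rule, 6 of the 15 were lower with DMAT and 2 higher, against 9.89% and 9% of all genes. With CX4945, 4 were lower and 2 higher, against 7.75% and 7.06%. Between the controls, 2 were lower and 4 higher, against 9.77% and 8.87%. The share of all genes called rose with reads, reaching 25.1% in either direction from 400 to under 3000 reads with DMAT.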

How the data were processed

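RNA from 4 cultures was sequenced on an Illumina MiSeq from TruSeq RNA v2 libraries of total RNA, per the labels. CASAVA 1.8.2 and mm9 are named in the submitters' processing notes; the aligner, the counting tool and its use of strand are not given in the sources used here. The deposited tables hold, per gene, raw counts made by the authors: total exon reads (used throughout), unique exon reads, junction reads and reads outside exons.

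From these counts CPM (edgeR 4.0.16, TMM factors 0.996 to 1.007) and RPKM were computed. Ratios carry exact conditional (Clopper-Pearson) 95% intervals on the reads of each pair, for counting error only, and log2 ratios use a prior count of 2. Genes with at least 20 reads in the pair entered. The joint fit used edgeR's quasi-likelihood test in R 4.3.3 on all genes kept by filterByExpr, with BH adjustment; DESeq2 1.42.0 was an alternative. Libraries are paired because the titles name a control for each inhibitor. No 2 libraries agreed within sampling noise (chi-square per degree of freedom 2.56 to 5.63). The joint fit was run on simulated counts with the fitted spread (dispersion 0.006) and no difference between the pairs. The intervals were run on simulated counts with counting error only. The real libraries differed by more than that, so these runs check the computation and not the calls.

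The members and gene lists were chosen with earlier results of these data known. Named are all members and, of each list, genes that passed the joint fit, genes at least 2-fold in a pair with an interval that leaves out 1, and the highest and lowest joint value; others named (the Bcl2a1 copies, relatives near the floor, Stat5b, Foxo1, Foxo3, Cycs, Apaf1 and the Vdac genes) were chosen after their values were seen.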

Additional observations from a re-analysis of the deposited data

How the results depend on the processing

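Of the members' ratios under other settings, 184 stayed within the counting interval of the reported ratio and 2, Bcl2 with DMAT against the other control (0.30) and Bak1 with CX4945 on unique reads (0.68), did not. The 184 include the setting with a minimum of 1 read, under which a member's own ratio cannot change. For members with few reads the interval is wide, so large shifts also count as within it. With DMAT against the other control, the Pmaip1 log2 ratio was 0.87 in place of 0.045. That of Bak1 was −0.28 in place of −0.62, and its interval then held 1. In the joint fit 0 members passed under any setting, the lowest adjusted p being 0.166 (edgeR, RLE size factors). Counts over all genes moved more. Genes past 2-fold numbered 988 with DMAT, 847 with CX4945 and 960 between the controls with a minimum of 1 read, and 42, 26 and 32 with a minimum of 100. With CX4945 they numbered 103 on unique reads and 366 against the other control, where 2557 intervals left out 1. Genes passing the joint fit numbered 84 with RLE size factors, 108 on unique reads, 3 with DESeq2 and 1 with no replicate block. Leaving out 1 library at a time, also without the block, since a pair missing a library leaves no residual degree of freedom with it, gave 1 to 73; the lone library was taken to vary like the others. Of these, 1 gene passed without either control library and 73 without the DMAT library. The Bak1 joint log2 value was 0.12 on unique reads. In those leave-one-out fits the log2 values ran from −0.11 to 0.0104 for Bcl2l1, −0.0773 to 0.18 for Bax, −0.48 to 0.0481 for Bak1, −0.31 to 0.48 for Bid, −0.29 to 0.49 for Bbc3, −0.40 to 0.65 for Pmaip1, −0.0586 to 0.50 for Casp9, −0.52 to 0.0900 for Birc2, −0.0482 to 0.0670 for Birc6, −1.18 to 1.32 for Trp53inp1, −1.71 to 0.14 for Perp, −0.63 to 0.0332 for Ppp3ca, −0.0943 to 0.49 for Rps6ka1 and −0.0138 to 0.45 for Runx1, none of them called. Bcl2 (0.29 to 0.57) and Bcl2l11 (0.46 to 0.79) stayed above 0. The cause of these shifts was not tested. With 9 to 87 reads a library, Pmaip1, Bbc3, Bad and Bcl2l11 could show only large differences.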
